A study of Mus musculus with 28 samples.

Results

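The genes described here are the core of the NF-kB pathway in mouse brain: 4 subunits of the transcription factor (Rela, Relb, Nfkb1, Nfkb2), the 3 parts of the kinase that releases it (Chuk, Ikbkb, Ikbkg) and 3 inhibitors (Nfkbia, Nfkbib, Tnfaip3). They were chosen by symbol as a list of 10, and all 10 were found among the 55414 genes of the tables. Enough counts for a test were present for 9 of the 10, out of 12423 genes tested in all, and Tnfaip3 was too low. RNA of whole brain was measured in 28 libraries, 7 in each of 4 groups, by a 3′ tag method in which a transcript is read near its polyadenylated end. Cuprizone, a compound that binds copper, kills oligodendrocytes when mice eat it and so removes myelin, which is rebuilt after withdrawal. Naive mice (coded CPZ 0 in the design text), mice at the peak of demyelination (CPZ 5) and mice in remyelination (CPZ 6+1) carried floxed Tnfr1 alleles (TNFR1ff) on a C57BL/6 background. The knockout group was also in remyelination (CPZ 6+1) and carried Cx3cr1-CreER with the floxed alleles (mgTNFR1KO), so that tamoxifen removes TNFR1 from microglia. The labels give neither the unit of these codes nor the age and sex of the mice, and do not say whether the controls received tamoxifen. The Cx3cr1 promoter is also active in other mononuclear phagocytes, and neurons, astrocytes and oligodendrocytes keep the receptor.

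In resting cells NF-kB dimers are held in the cytoplasm by IkB proteins. TNF acting through TNFR1, interleukin 1 and Toll-like receptor ligands activate a kinase complex of 2 catalytic subunits (encoded by Chuk and Ikbkb) and a scaffold (Ikbkg, also called NEMO), which marks IkB for destruction and lets the dimers enter the nucleus. Among the first genes they switch on are their own inhibitors, Nfkbia (IkB alpha) and Tnfaip3 (A20, an enzyme that edits ubiquitin chains), so that the level of these transcripts is often read as a trace of recent pathway activity. Nfkbia is also raised by glucocorticoids.

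Library totals ran from 1522919 to 3137252 counts. All levels below are CPM (a gene's counts scaled to a common library total) on the scale of the TMM normalisation, on which 3 counts equal 0.954 to 2.39 CPM depending on the library. A 3′ tag protocol gives about 1 read per transcript, so that CPM is not divided by transcript length when genes are compared. Knockout library 1 and naive library 1 stood apart in the share of the most abundant gene, at 1.33 and 25.54%. In the other 26 libraries this share was 5.68 to 17.12%. Every count of called members was repeated without both knockout library 1 and naive library 1. Markers of the labelled tissue were present in every group, with summed CPM of 10 neuron genes between 5361 and 7164. Folds are log2 differences with their standard error (SE), and p-values come from the quasi-likelihood test of edgeR, adjusted by Benjamini-Hochberg across all 12423 genes, unless another tool is named. The labels do not say that the 7 samples of a group came from separate mice, so the p-values measure the spread between samples, which may be technical.

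Of the 9 genes tested, only Nfkbia passed in any of the 6 comparisons between groups. The same was true of 4.74% of all genes in at least 1 comparison. In a test of any difference among the 4 groups Nfkbia passed as well (adjusted p = 0.000558), as did 2.46% of all genes, and the other 8 had adjusted p-values from 0.168 to 0.984. The plot of all 10 genes by library shows this contrast.

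**Figure D1:**
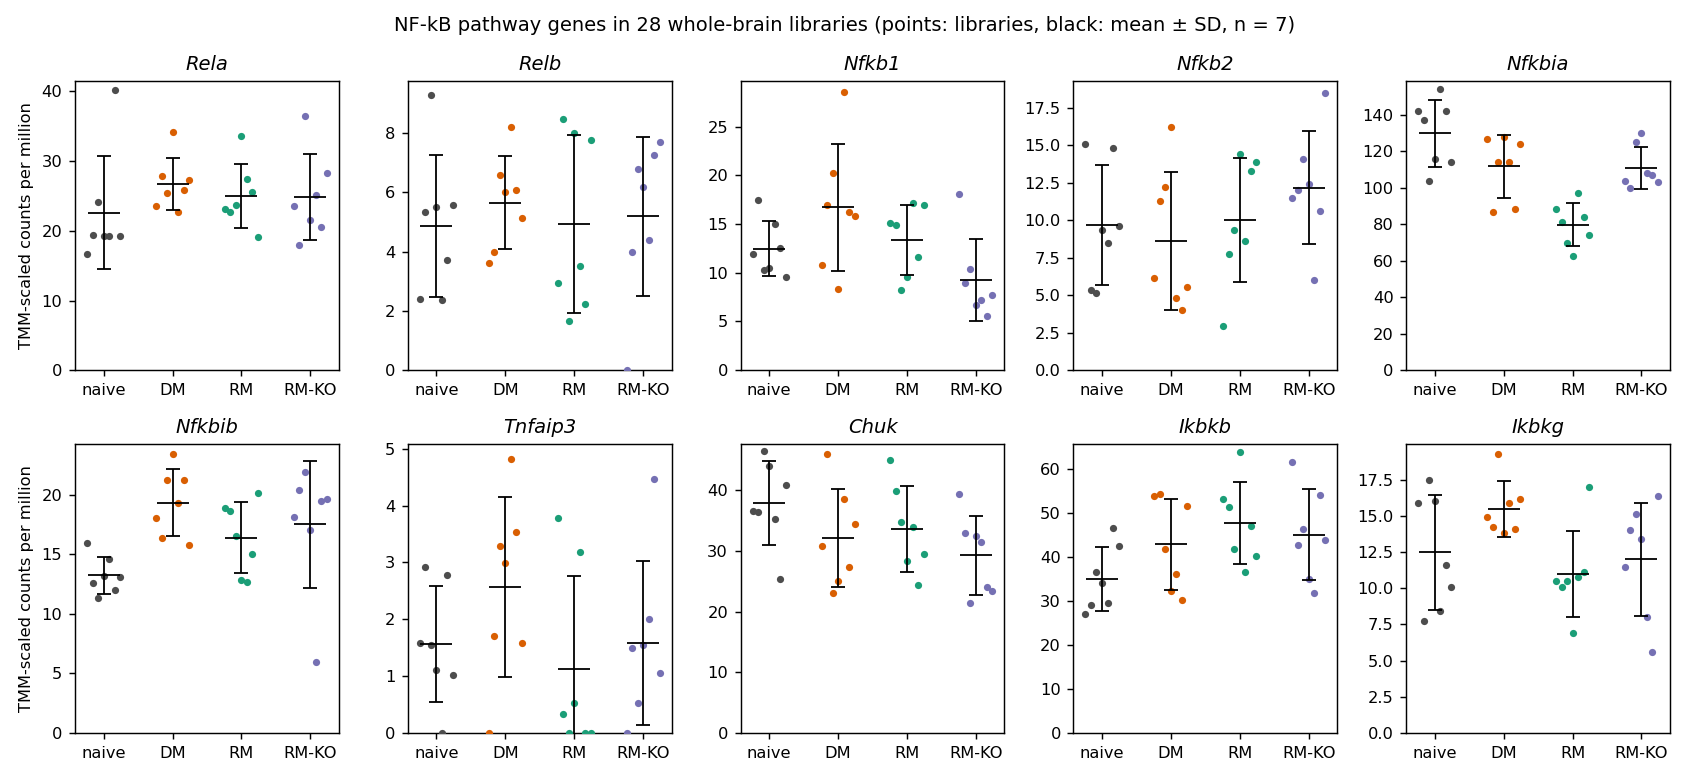
Level of each gene in TMM-scaled CPM (y axis, starting at 0, own scale per gene) in the naive, demyelination (DM), remyelination (RM) and knockout remyelination (RM-KO) groups. Points are the 7 libraries of a group and black bars the mean ± SD. Nfkbia in remyelination lies between 62.4 and 97.3, below all naive and all knockout libraries, while the other genes overlap between these groups.

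Nfkbia, the IkB alpha gene (ENSMUSG00000021025.9), was by far the most abundant of the 10, with 117 to 328 counts per library. It was lowest at 103.7 CPM, 137.2 at the median and 154.1 at the highest in naive brain. In demyelination the values were 86.7, 113.8 and 128.1, in remyelination 62.4, 81.1 and 97.3, and in knockout remyelination 99.7, 106.5 and 129.9 CPM. Every remyelination library thus lay below every naive library, demyelination libraries overlapped with both groups, and knockout libraries overlapped with naive and demyelination libraries but not with control remyelination. The group means were 129.8 ± 18.5, 111.6 ± 17.4, 79.7 ± 11.8 and 110.8 ± 11.6 CPM in the same order (SD, n = 7).

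From naive brain to remyelination Nfkbia fell by 0.70 (log2, with an SE of 0.112 and an adjusted p of 0.000131), to 0.617 of its naive level with a 95% interval from 0.527 to 0.722. It stood at rank 22 by p among all genes in this comparison. It was the 1 member called of the 9 tested, where 0.628% of all genes were called and 0.177% were called lower, and it was also the 1 member without overlap between the groups, where 0.628% of all genes had none. The call was kept in all 35 alternative analyses, with log2 values from -0.75 to -0.64. From demyelination to remyelination Nfkbia fell by 0.48 (SE 0.113, adjusted p = 0.0321), the 1 member called where 0.386% of all genes were called and 0.185% were called lower, and 5 of 7 remyelination libraries lay below all demyelination libraries. This second call was lost (adjusted p 0.0527 to 0.131) without demyelination library 1, 3, 4, 5 or 7 or without remyelination library 3, 4, 6 or 7, and in a fit of these groups alone (adjusted p = 0.078). Between naive and demyelinated brain the difference was -0.22 (SE 0.111, 95% interval -0.44 to 0.01, adjusted p = 0.401).

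In remyelination the knockout group had higher Nfkbia values than the control group, a difference that did not pass the test over all genes. The groups differ in the Cre allele as well, and perhaps in tamoxifen, so their parts and that of the deletion cannot be told apart. The difference between knockout and control libraries was 0.47 (SE 0.112, 95% interval 0.24 to 0.70, adjusted p = 0.163), or 1.38 times the control level. All 7 knockout libraries lay above all 7 control libraries, a separation that 0.129% of all genes showed. The gene stood at rank 12 by p, and 6 genes, or 0.0483% of all, passed. With DESeq2 it passed, at 0.47 with an adjusted p of 0.0271. Over the 35 alternatives the adjusted p ran from 0.0271 to 0.356. Against naive brain the knockout group differed by -0.23 (adjusted p = 0.255) and against demyelination by -0.01 (95% interval -0.24 to 0.21, adjusted p = 0.985). In order of level the groups were thus naive, demyelination, knockout remyelination and control remyelination. Neither naive against demyelination nor demyelination against knockout remyelination differed beyond the spread.

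The promoter of Nfkbia is shown because the autoregulation of this gene by NF-kB is the textbook case, and the level of the gene was the value that moved. The sequence is the stretch of 250 bases before the RefSeq start (build GRCm38.p6, chr12:55492648-55492897, minus strand), written 5′ to 3′ with the match to the NF-kB consensus in capitals.
Nfkbia: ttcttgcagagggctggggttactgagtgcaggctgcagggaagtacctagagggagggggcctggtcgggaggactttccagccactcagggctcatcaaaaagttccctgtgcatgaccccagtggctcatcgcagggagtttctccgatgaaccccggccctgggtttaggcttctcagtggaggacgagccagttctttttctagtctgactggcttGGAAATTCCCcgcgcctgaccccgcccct
The NF-kB consensus is a motif of 10 bases and was searched on both strands in the window of 250 bases. The match GGAAATTCCC begins 29 bases before the start. It fits the consensus on the strand opposite to the one written. Of 32851 RefSeq promoters, 7.25% held at least 1 match and 1.03% at least 2. Promoters were matched by symbol for 7 of the 10 genes, with 13 promoters among them, and 3 genes had a match, shown here because all 3 are known feedback targets. Nfkb2, in the first of its 3 promoters (chr19:46304487-46304736, plus strand), held matches that began 39, 38 and 11 bases before the start, the first 2 of them overlapping. The match at 39 fits on both strands, that at 38 on the opposite strand and that at 11 on the written strand.
Nfkb2: GGGAATTCCC
Nfkb2: GGAATTCCCC
Nfkb2: GGGGCTTTCC
Tnfaip3, in the first of its 2 promoters (chr10:19015411-19015660, minus strand), held matches that began 125 and 12 bases before the start. The match at 125 fits on both strands and that at 12 on the strand opposite to the one written.
Tnfaip3: GGGACACCCC
Tnfaip3: GGAAATCCCC
The other promoters of Nfkb2 held 1 match each. No match was found in the windows of Nfkbib, Rela, Chuk and Ikbkg. Of the genes with a match, Nfkbia fell in remyelination, Nfkb2 did not pass in any comparison and Tnfaip3 was below the filter on low counts.

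The tested genes whose level followed that of Nfkbia most closely over the 28 libraries were Sgk1, a kinase induced by glucocorticoids (Pearson's r = 0.734), Ddit4, a stress and glucocorticoid-induced inhibitor of mTOR (r = 0.719), and Cntn1, a neuronal adhesion protein (r = 0.694). After subtraction of each group's mean the values were 0.509, 0.354 and 0.457. These describe the same libraries and their shared scaling, and no test was attached. Sgk1 fell by 0.99 (SE 0.179, adjusted p = 0.000806) from naive brain to remyelination and Ddit4 by 0.89 (SE 0.141, adjusted p = 8.87e-05). Cntn1 differed by -0.24 (adjusted p = 0.215). From demyelination to remyelination Sgk1 fell by 0.87 (adjusted p = 0.00871), as Nfkbia did. In other comparisons these genes parted from Nfkbia. Ddit4 was already lower in demyelination than in naive brain, by 0.57 (adjusted p = 0.0155), where Nfkbia was not called. Sgk1 was lower in knockout remyelination than in naive brain, by 0.69 (adjusted p = 0.0247). Between knockout and control remyelination Sgk1 differed by 0.31 (adjusted p = 0.716).

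Some activity-induced genes moved beside Nfkbia. Among 12 tested of 13 immediate early genes, 3 fell from naive brain to remyelination, where 0.177% of all genes were called lower. They included the transcription factor gene Fos, by 1.28 (SE 0.227, adjusted p = 0.000664), and the phosphatase gene Dusp1, by 0.73 (SE 0.164, adjusted p = 0.0151). Between knockout and control remyelination 4 of the 12 rose, and these made up 4 of the 6 genes called in that comparison: the nuclear receptor gene Nr4a1 (0.96), the synaptic gene Arc (0.93), Dusp1 (0.89) and Fos (1.23, SE 0.226, adjusted p = 0.00855). The other genes called were Ddit4, which rose by 0.71 (adjusted p = 0.026), and Cx3cr1, the locus of the Cre driver, which fell by 0.89 (adjusted p = 0.0365). Fos was at 35.9 ± 7.98 CPM in naive, 31.5 ± 13.7 in demyelination, 14.5 ± 4.65 in remyelination and 34.7 ± 9.52 in knockout remyelination libraries (SD, n = 7). The summed CPM of the immediate early list overlapped between groups, at 634.2 to 956.9 for naive, 624.8 to 1132 for demyelination, 541 to 895.2 for remyelination and 759.1 to 1003 for the knockout, and no member was at 0 in any group. Between knockout and control 11 of the 12 tested were above 0, with a median of 0.41 beside -0.0003 for all genes. From naive brain to remyelination 11 of the 12 were below 0, with a median of -0.21 beside 0.0023 for all genes. Those not called ranged from Egr2 at -0.80 (adjusted p = 0.538) and Arc at -0.62 (adjusted p = 0.0563) to Fosl2 at 0.09 (adjusted p = 0.909). Others lay near 0: Egr1 at -0.04 (adjusted p = 0.948), Jun at -0.09 (adjusted p = 0.868) and Ier2 at -0.02 (adjusted p = 0.991). The 10 glucocorticoid-responsive genes went in both directions in the same comparison. Sgk1 and Ddit4 fell, while the transcription factor gene Zbtb16 rose by 1.20 (SE 0.251, adjusted p = 0.00655) and the metallothionein gene Mt2 by 0.65 (SE 0.119, adjusted p = 0.000918). Tsc22d3 and Fkbp5, known glucocorticoid targets, differed by 0.04 (adjusted p = 0.96) and 0.18 (adjusted p = 0.802). The summed CPM of this list was 1707 to 1980 for naive and 1824 to 2184 for remyelination, and between knockout and control 1 of the 10, Ddit4, rose. The part of activity or glucocorticoids in the Nfkbia level was not tested.

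**Figure D2:**
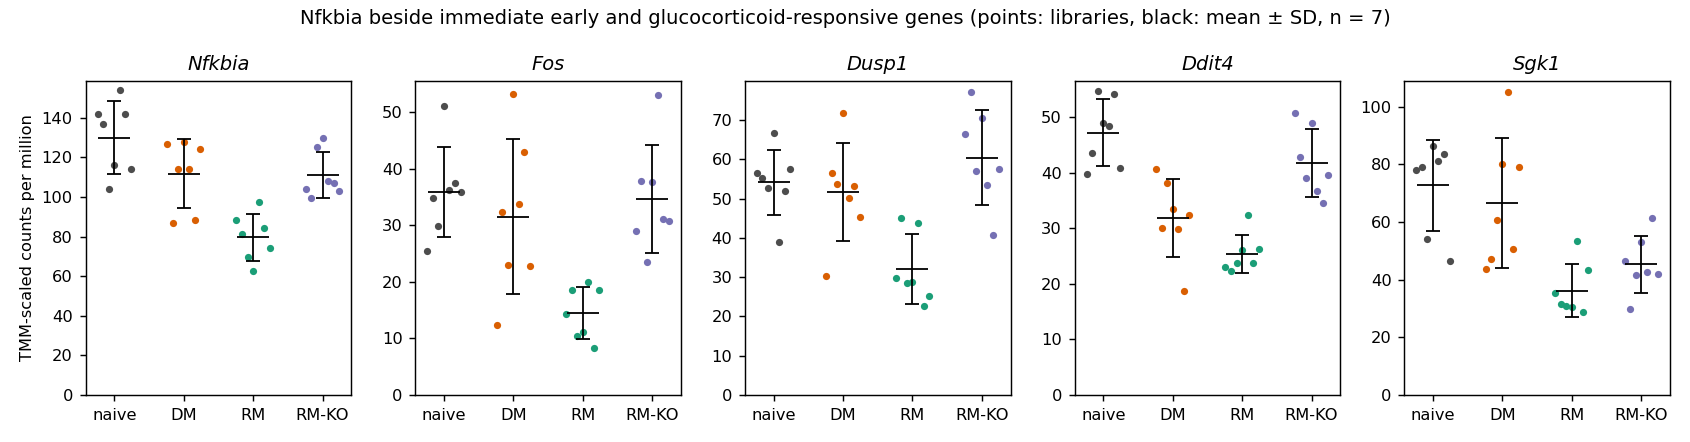
Nfkbia beside the immediate early genes Fos and Dusp1 and the stress and glucocorticoid-responsive genes Ddit4 and Sgk1, in TMM-scaled CPM (y axis, starting at 0) by group. Points are libraries and bars the mean ± SD of 7. The 4 other genes were chosen after their values were seen, for having their lowest mean in control remyelination (14.5 for Fos), and do not stand for their lists, in which Zbtb16 and Mt2 rose from naive brain to remyelination.

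Nfkbib, which encodes IkB beta, the inhibitor that is degraded and restored more slowly, had a level far below that of Nfkbia. The lowest, median and highest libraries held 11.3, 13.1 and 15.9 CPM in naive, 15.8, 19.3 and 23.4 in demyelination, 12.7, 16.5 and 20.1 in remyelination and 5.99, 19.5 and 21.9 in knockout remyelination. In demyelination 6 of 7 libraries lay above every naive library. The difference from naive brain was 0.55 (SE 0.198, 95% interval 0.15 to 0.95) and did not pass (adjusted p = 0.172). Remyelination differed from naive by 0.31 (adjusted p = 0.604) and knockout from control remyelination by 0.09 (adjusted p = 0.943). The gene overlaps Sirt2 and Ccer2 on the opposite strand in the GENCODE M21 annotation, with 3659 and 48 counts in all libraries, and the strand setting of the authors' counting is not given, so its value is uncertain.

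The ratio of Nfkbia to Nfkbib set these opposite differences side by side. It ran from 8.69 to 11.8 in naive libraries, with a median of 9.14, and from 4.17 to 7.83 in demyelination, with a median of 5.49, so that these groups did not overlap. In control remyelination it ran from 3.69 to 7.65 (median 4.69). In knockout remyelination the median was 5.69, and 6 of 7 libraries lay between 4.88 and 7.64, while knockout library 5 reached 18 and had the lowest Nfkbib level. The ratio was formed after the levels had been seen and is a description with no test. Nfkbia made up 38.95 to 53.68% of the summed CPM of the 10 genes in naive and 25.94 to 38.73% in control remyelination libraries. These ranges nearly touched, and the share holds the same Nfkbia values as above, so it is not a separate result. In demyelination the share was 31.0 to 44.1% and in knockout remyelination 36.3 to 47.0%.

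**Figure D3:**
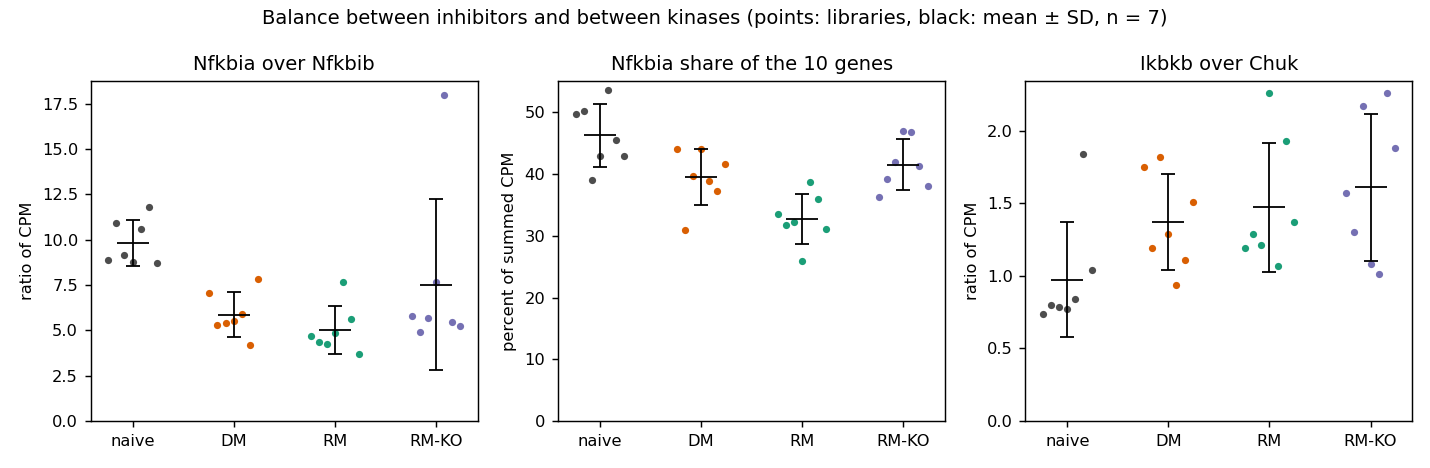
Ratio of Nfkbia to Nfkbib CPM, share of Nfkbia in the summed CPM of the 10 genes in percent, and ratio of Ikbkb to Chuk CPM (y axes, starting at 0) by group. Points are libraries and bars the mean ± SD of 7. The Nfkbia to Nfkbib ratio is 8.69 or more in all naive libraries and at most 7.83 in demyelination and 7.65 in control remyelination.

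Tnfaip3, the A20 gene and the third inhibitor, was low. The groups held 21 counts in naive (95% Poisson interval 13 to 32.1), 36 in demyelination (25.2 to 49.8), 21 in remyelination (13 to 32.1) and 23 in knockout remyelination (14.6 to 34.5). These intervals cover counting error only. A total of 6 libraries had no count, 3 of them in remyelination, and the highest library of any group had 4.82 CPM. It did not pass the filter on low counts. In the alternative without that filter, in which 26337 genes were tested, its differences were 0.69 between demyelination and naive (SE 0.653, adjusted p = 0.69) and -1.04 between remyelination and demyelination (SE 0.652, adjusted p = 0.691), and edgeR called 0 of the 6 comparisons (0 at an unadjusted p under 0.05).

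Among the subunits, Rela, the activating partner of the classical dimer, was the most abundant. Its lowest, median and highest libraries held 16.7, 19.3 and 40.2 CPM in naive, 22.7, 25.8 and 34.1 in demyelination, 19.1, 23.7 and 33.6 in remyelination and 17.9, 23.6 and 36.5 in knockout remyelination. All 4 groups overlapped. Its differences from naive were 0.22 in demyelination (95% interval -0.14 to 0.58) and 0.13 in remyelination (-0.23 to 0.49). Without naive library 6, which held 40.2 CPM, they were 0.43 (adjusted p = 0.207) and 0.34 (adjusted p = 0.456). For Rela knockout and control remyelination differed by 0.00 (-0.36 to 0.35). As a fold, the interval for Rela between knockout and control ran from 0.781 to 1.27. Relb, the activating subunit of the alternative pathway, had between 0 and 9.28 CPM per library and 66 to 80 counts per group. Its intervals were wide, at -0.61 to 1.01 for demyelination against naive.

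Nfkb1 encodes p105, the precursor of the p50 subunit. It was highest in demyelination and lowest in knockout remyelination. The lowest, median and highest libraries held 9.61, 11.9 and 17.5 CPM in naive, 8.38, 16.2 and 28.5 in demyelination, 8.26, 14.9 and 17.2 in remyelination and 5.58, 7.69 and 18.1 in knockout remyelination. Of the 7 knockout libraries 4 lay below every control remyelination library, and 1, library 1, lay above all of them. The difference between knockout and control was -0.57 (SE 0.253, adjusted p = 0.635) and between knockout and demyelination -0.88 (SE 0.251, adjusted p = 0.113). Without knockout library 1 the latter passed, at -1.11 with an adjusted p of 0.0155, and it also passed without demyelination library 4 (-0.98, adjusted p = 0.0424). Without knockout library 1 and naive library 1 together it was -1.11 (adjusted p = 0.0164). Gm43430 overlaps on the same strand and had 438 counts in all libraries, so the value of Nfkb1 is uncertain where reads could be split.

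Nfkb2 encodes p100, which is cut to p52 in the alternative pathway. It had medians of 9.36 CPM in naive, 6.17 in demyelination, 9.36 in remyelination and 12 in knockout remyelination, over a full range from 2.94 to 18.5 CPM. All groups overlapped. The widest difference, knockout against demyelination, was 0.52 (SE 0.314, adjusted p = 0.585). The gene overlaps Psd on the opposite strand by 299 bases, which had 5458 counts in all libraries, and its value is uncertain for the same reason as that of Nfkbib.

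Of the kinase genes, Ikbkb, the catalytic subunit of the classical pathway, had lowest, median and highest levels of 27, 34.1 and 46.7 CPM in naive, 30.3, 41.9 and 54.4 in demyelination, 36.6, 47.1 and 64.0 in remyelination and 31.9, 44.0 and 61.6 in knockout remyelination. In remyelination 4 of 7 libraries lay above all naive ones. The difference was 0.43 (SE 0.161, 95% interval 0.11 to 0.76) and did not pass (adjusted p = 0.27). Chuk encodes the other catalytic subunit, which is needed in the alternative pathway. Its medians were 36.6, 30.8, 34.0 and 31.6 CPM in naive, demyelination, remyelination and knockout remyelination, with differences from naive of -0.23, -0.16 and -0.37 (adjusted p = 0.589, 0.783 and 0.204). The ratio of Ikbkb to Chuk had medians of 0.80, 1.29, 1.29 and 1.57 in these groups. Naive libraries 6, at 1.84, and 7, at 1.04, lay within the full range of the other groups, 0.938 to 2.26.

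Ikbkg, the scaffold, was tightest in demyelination, where all libraries lay between 13.8 and 19.3 CPM. In remyelination 6 of 7 lay below all of these, at 6.93 to 11.1 CPM, and library 7 was at 17.0. The difference was -0.50 (SE 0.224, 95% interval -0.95 to -0.05) and did not pass (adjusted p = 0.693). Naive libraries ran from 7.76 to 17.5 and knockout libraries from 5.58 to 16.4 CPM, so both overlapped with demyelination and remyelination. Ikbkg overlaps G6pdx on the opposite strand, with 625 counts in all libraries.

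Between demyelinated and naive brain edgeR called 0 of the 9 tested genes, where 2.0% of all genes were called. At an unadjusted p under 0.05 there was 1 (Nfkbib), against 13.3% of all genes, and DESeq2 called 0. The median difference of the 9 was 0.22 and that of all genes -0.01, with 6 of the 9 above 0. Between remyelination and naive brain the median was 0.05, and 2 genes (Nfkbia and Ikbkb) had an unadjusted p under 0.05, as did 10.4% of all genes. Between remyelination and demyelination it was -0.19, with 2 such genes (Nfkbia and Ikbkg) against 6.65% of all. Between knockout and control remyelination edgeR called 0 of 9, with 2 at an unadjusted p under 0.05 (Nfkbia and Nfkb1) where 7.49% of all genes had such a p, and DESeq2 called 1. The median was 0.08 against 0.00 for all genes. Between knockout remyelination and naive brain 0 were called where 3.24% of all genes were, with 3 at an unadjusted p under 0.05 (Nfkbia, Chuk and Ikbkb, 18.9% of all genes) and 0 by DESeq2. Against demyelination the knockout group had 0 called, where 0.604% of all genes were, with 1 at an unadjusted p under 0.05 (Nfkb1, 10.7% of all genes) and 0 by DESeq2. None of the 9 had groups without overlap in demyelination against naive (1.38% of all genes), remyelination against demyelination (0.322%), or knockout remyelination against naive (1.05%) and demyelination (0.419%). The comparisons with naive share its libraries, as do those with demyelination and with remyelination.

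**Figure D4:**
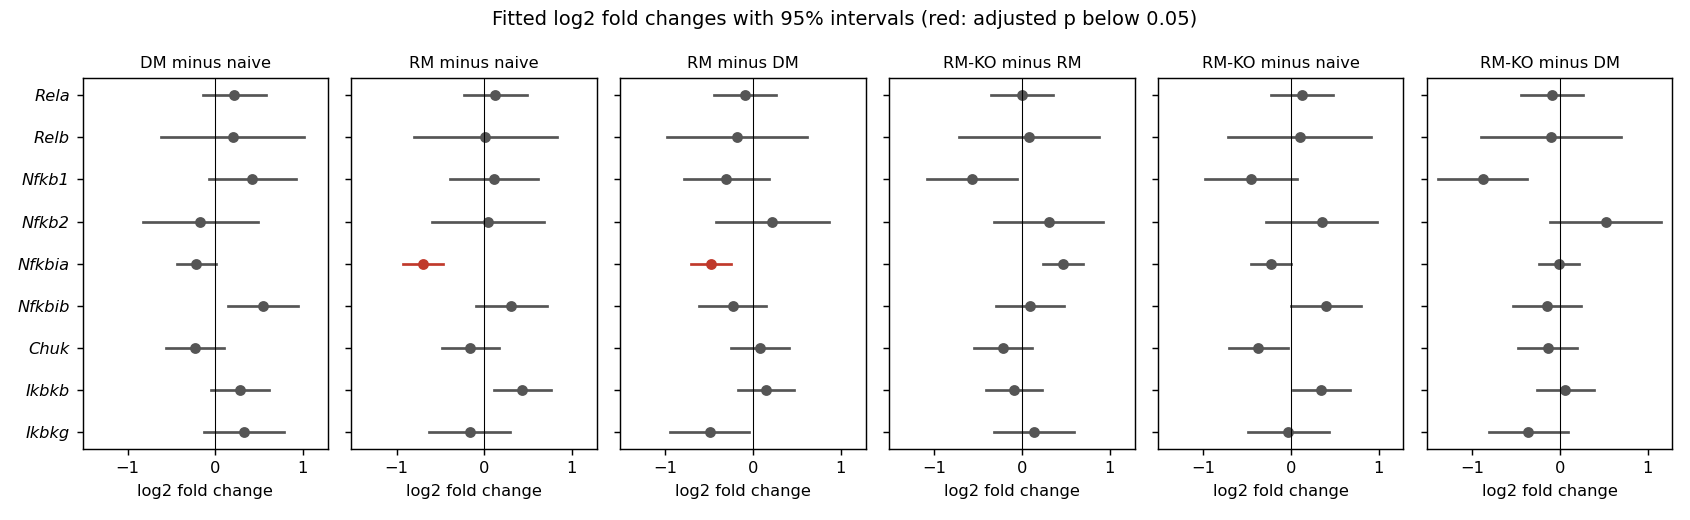
Fitted log2 fold changes (x axis) of the 9 tested genes in the 6 comparisons, with their 95% intervals as lines. Red marks an adjusted p below 0.05, which only Nfkbia reaches, at -0.70 in remyelination against naive and -0.48 against demyelination; its interval for knockout against control remyelination, 0.24 to 0.70, lies above 0 but the adjusted p is 0.163.

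Over the same steps the summed level of 15 microglia markers was higher in every demyelination library than in any naive one, at 579.5 to 789.1 against 242 to 338 CPM. Of the 15, 11 were called higher, where 2.0% of all genes were called in either direction, and none was at 0. Summed CPM of 10 oligodendrocyte markers was 2619 to 3726 in demyelination and 6356 to 7347 in naive libraries, and all 10 fell. In remyelination the microglia sum was 456.1 to 584.2 CPM and 8 of 15 were called higher than in naive brain, where 0.628% of all genes were called in either direction. In knockout remyelination the microglia sum was 428.5 to 565.9 CPM. The oligodendrocyte sum was 5457 to 7044 CPM in control and 6082 to 7362 in knockout remyelination. The sum of 10 astrocyte markers was 5211 to 5967 CPM in control and 5775 to 6250 in knockout remyelination. Of these 10, 9 were higher in the knockout, with a median of 0.12. None of the 10 was called, and 3 had an unadjusted p under 0.05 (7.49% of all genes). In whole tissue fewer cells of a type and less RNA per cell cannot be told apart, and the part of these shifts in the values of the 10 genes was not tested. Endothelial and mural markers, from cells that also express Nfkbia, overlapped between groups (summed CPM 373 to 427.7 for naive, 382.8 to 458.8 for demyelination, 372.7 to 497.7 for remyelination and 413.3 to 481.7 for the knockout). None of the 13 tested of 15 was called between naive and remyelination, and 3 had an unadjusted p under 0.05, as did 10.4% of all genes. Lymphocyte markers were low, with 2 of 13 tested and the T cell genes Cd2 and Cd3d at 0 in all 4 groups, and of 13 monocyte, neutrophil and border macrophage markers 1 was tested.

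The wider pathway was followed with 124 further genes in 6 lists, of which 64 passed the filter on low counts. Between demyelinated and naive brain 3 of the 64 rose and 1 fell, together 6.25% beside 2.0% of all genes, with a median of 0.02. From naive brain to remyelination 1 rose and 0 fell (1.56% beside 0.628%), and between knockout and control remyelination edgeR and DESeq2 called 0, with 6 at an unadjusted p under 0.05 (9.38% beside 7.49% of all genes). Knockout remyelination against naive brain had the most calls of the 6 comparisons, 3 higher and 2 lower (7.81% beside 3.24%), and DESeq2 called 6. There 15 had an unadjusted p under 0.05 (23.4% beside 18.9% of all genes). Of the other family and IkB genes only Rel and Nfkbiz were tested, and Nfkbiz, a nuclear IkB protein, had the smallest p, at 5.60 ± 2.10 CPM in knockout remyelination and 8.81 ± 1.54 in demyelination libraries (-0.65, adjusted p = 0.487). Neither passed in any comparison (0 at an unadjusted p under 0.05 and 0 by DESeq2 in each).

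Upstream, 4 of 16 receptor genes and 4 of 14 ligand genes were tested. Tnfrsf1a, which encodes TNFR1 and is the floxed gene, rose by 1.01 (SE 0.176, adjusted p = 0.000205) between naive brain, at 13.4 ± 3.07 CPM, and demyelination, at 27.3 ± 4.89 CPM. It was at 23.2 ± 4.47 CPM in control and 22.1 ± 4.22 in knockout remyelination, a difference of -0.05 (adjusted p = 0.961). Whether the 3′ tag of Tnfrsf1a lies outside the deleted part is not known here, and other cells keep the gene, so this does not check the deletion. The ligand gene Tnf had 1 count in all 28 libraries and Il1b 4 to 15 counts per group. Il33, an alarmin of oligodendrocytes and astrocytes, rose by 0.70 (SE 0.162, adjusted p = 0.0271) between demyelination, at 26.2 ± 5.89 CPM, and remyelination, at 42.9 ± 9.06 CPM.

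Of 30 adaptors and upstream kinases 18 were tested. Among the 3 control groups no adaptor or kinase was called by edgeR or DESeq2, and 0 had an unadjusted p under 0.05, and Tab3, an adaptor of the kinase TAK1, fell from naive brain to knockout remyelination, by 0.83 (SE 0.235, adjusted p = 0.0407). Of 26 ubiquitin editors and negative regulators 23 were tested, and Itch, a ubiquitin ligase that works with A20, fell by 0.52 in the same comparison (SE 0.146, adjusted p = 0.0389). The 3 genes that rose there were Tnfrsf1a by 0.72 (adjusted p = 0.0187), Bcl2a1b by 2.32 (adjusted p = 0.0111) and Csf1 by 0.63 (adjusted p = 0.049). Among 13 tested of 32 other NF-kB target genes 2 rose and 1 fell from naive brain to demyelination, where 2.0% of all genes were called. Csf1, the growth factor of microglia, went from 18 ± 3.84 to 33.1 ± 9.25 CPM and so rose by 0.85 (SE 0.183, adjusted p = 0.00351). Bcl2a1b, a survival gene of leukocytes, went from 1.01 ± 0.822 to 7.16 ± 3.44 CPM and so rose by 2.78 (SE 0.527, adjusted p = 0.000731), but it belongs to a family of near-identical copies and is uncertain. In naive brain Bcl2a1b had only 13 counts, at most 4 in a library, and 2 libraries had none. Its rise of 2.32 in knockout remyelination rests on the same naive libraries. Xiap, an inhibitor of caspases, fell by 0.39 (SE 0.109, adjusted p = 0.0473). The median of the 13 was 0.16 in that comparison and -0.01 from naive brain to remyelination. In the latter edgeR called 0 (0.628% of all genes), DESeq2 called 1 and 4 had an unadjusted p under 0.05 (10.4% of all genes). From demyelination to remyelination the median was -0.32, with 10 of the 13 below 0. There 1 had an unadjusted p under 0.05 (6.65% of all genes). Between knockout and control remyelination the median was 0.19, with 10 of the 13 above 0. Here 3 had an unadjusted p under 0.05 (7.49% of all genes). In both comparisons edgeR and DESeq2 called 0 of the 13.

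**Figure D5:**
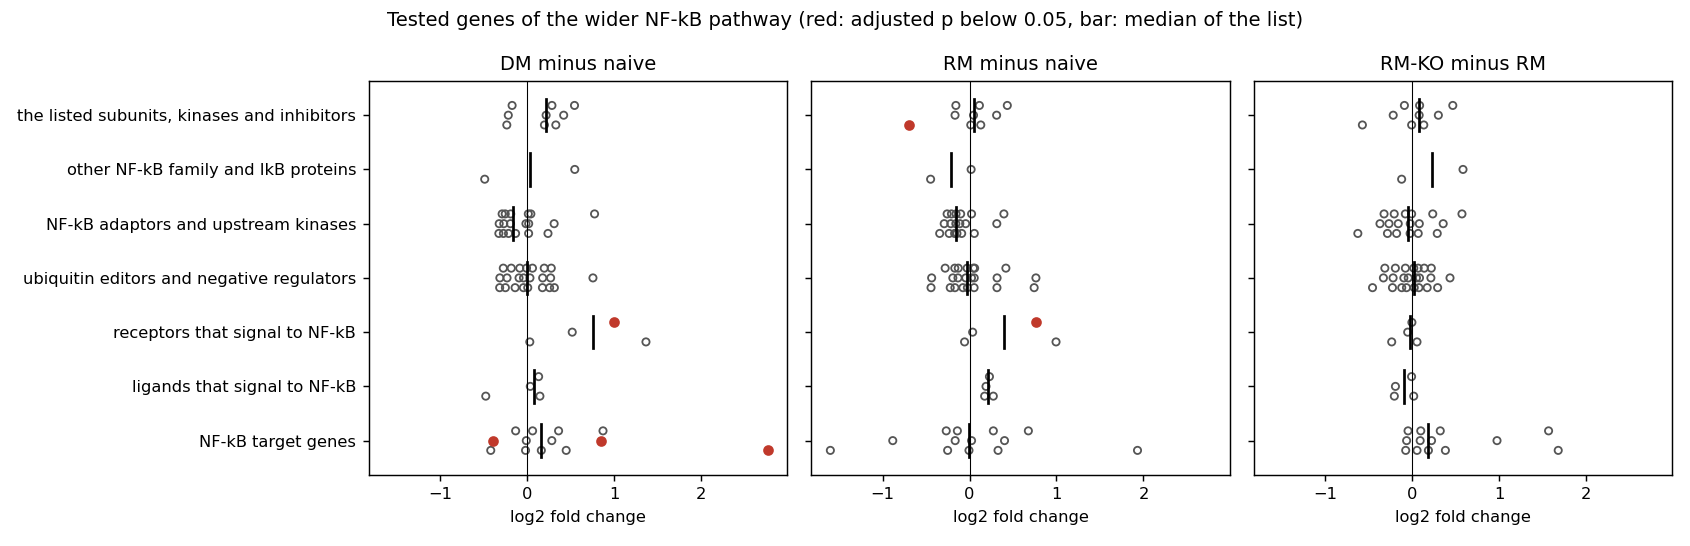
Log2 fold changes (x axis) of the tested members of 7 gene lists in demyelination against naive, remyelination against naive and knockout against control remyelination. Circles are genes, red marks an adjusted p below 0.05 and bars the median of each list; 3 genes rise and 1 falls outside the first list in demyelination, and no gene is red between knockout and control.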

How the data were processed

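The authors deposited an RSEM gene table for each of the 28 libraries, and the expected counts in it, estimated reads per gene without scaling, were used, per the file headers. RNA was isolated with TRIzol and made into libraries with the QuantSeq FWD 3′ kit, per the labels' protocols. Build GRCm39 and the tools STAR, RSEM, cutadapt, FastQC and edgeR are listed per the submitters' processing notes, without versions, settings, annotation release or strand. Between 96.59 and 97.69% of values per library were whole within 0.005, and all were rounded. Symbols came from a table of gene identifiers (52081 of 55414 genes matched; genes without a symbol held 10.76% of counts). The smallest chi-square per degree of freedom between replicate libraries was 2.53, so none was counted as a duplicate. Overlapping genes were read from GENCODE M21, whose build (GRCm38) differs from the authors', and promoters from RefSeq (GRCm38.p6).

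Counts were TMM-normalised, filtered with filterByExpr and tested with edgeR 4.0.16 (R 4.3.3; common biological coefficient of variation 19.47%) in 1 fit of all libraries with a mean per group. A gene was called at an adjusted p under 0.05. SE is the log2 fold change divided by the square root of F. The procedure was tested on simulated data for demyelination against naive (12423 genes, 200 changed): 50 and 60% of genes lowered or raised by 0.7 (log2) and 78 and 80% of those changed by 1 were called, and 8.84% of the calls were false. That false share is above the 0.05 of the threshold, so calls with an adjusted p close to it are less secure. Alternatives were DESeq2 1.42.0, library totals, filters, the replicate block, the groups of a comparison alone and leaving out libraries. All members were named, and of each pathway list the called genes (at most 4) or the gene of smallest p. The 3 closest genes by Pearson's r were named for a called member. Members and lists were chosen with earlier results of these data known.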

Additional observations from a re-analysis of the deposited data

Results flagged for a closer look

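Of 40 sets of 7 libraries (10 genes in 4 groups), 4 had a library whose gap to its nearest neighbour exceeded the 95% critical value of Dixon's test; chance gives about 1 in 20. Nfkbib in knockout library 5 was at 5.99 CPM, with the other 6 between 17.0 and 21.9. Nfkb1 in knockout library 1 was at 18.1 CPM, with the others between 5.58 and 10.4, and without it the difference from demyelination passed, as described above. Rela in naive library 6 was at 40.2 CPM, with the others between 16.7 and 24.2. Ikbkg in remyelination library 7 was at 17.0 CPM, with the others between 6.93 and 11.1.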

How the results depend on the processing

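Of 54 fold changes (9 genes in 6 comparisons) 1878 values were computed under 35 alternatives, and 1864 stayed on their side of the threshold. The 14 others were the 10 lost calls of Nfkbia between remyelination and demyelination, its gained call with DESeq2 between knockout and control, and 3 gained calls of Nfkb1 between knockout and demyelination. No called value changed sign. The count of genes called was 1 in remyelination against naive under every alternative, and 0 in demyelination or knockout remyelination against naive. Between remyelination and demyelination it was 0 in a fit of these groups alone and 0 to 1 with a library left out, between knockout and control 1 with DESeq2, and between knockout and demyelination 1 without knockout and naive libraries 1 and 0 to 1 with a library left out. In the test of any difference it was 2 without both libraries 1 and 1 to 2 with a library left out. With the replicate number as a block the counts were 1, 1 and 0 in remyelination against naive, remyelination against demyelination and knockout against control, as without it. The labels share numbers across groups. Of 42 same-numbered pairs 5 correlated above 0.1 (range -0.13 to 0.30), and 9 of 28 libraries correlated best with their own number. No rate for differently numbered pairs was set beside these, so they do not settle whether the numbers pair the samples. Low counts limit Tnfaip3 and Relb.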
